A study of Mus musculus with 10 samples.

Results

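The genes described here are Trp53, which encodes the transcription factor p53, and 9 genes that p53 is known to switch on: Cdkn1a, Mdm2, Ccng1, Bbc3, Bax, Trp53inp1, Sesn1, Phlda3 and Zmat3. They were picked by name, and each symbol matched 1 gene ID, which gave 10 of the 22713 genes in the deposited mRNA tables. All 10 passed the expression filter in both tables and none shared exon bases with another gene.

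p53 is kept low in unstressed cells because Mdm2, an E3 ubiquitin ligase that p53 itself induces, marks it for degradation. When DNA damage or other stress frees p53 from Mdm2, p53 binds its response elements as a tetramer and raises genes that stop the cell cycle, repair DNA or start apoptosis. Since this control acts mainly on the p53 protein, Trp53 mRNA alone does not report p53 activity. Mouse ES cells carry abundant p53 and are known for a weak p21 arrest.

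The mRNA data came from 8 libraries of mouse ES cells. Pontinf/f; CreER ES cells gave 1 library without treatment (WT) and 1 for each of OHT 3D and OHT 4D, taken 3 and 4 days after 4-hydroxytamoxifen, the drug that turns on the Cre recombinase that deletes the floxed Pontin alleles. ZHBTc4 ES cells, whose Oct4 comes from a transgene that tetracycline shuts off, gave 1 library 2 days after tetracycline (Tc 2D). Untreated with tetracycline, the same line gave 2 libraries at 4 days after infection with a control pLKO lentivirus (shRNA control) and 2 after a pLKO lentivirus against linc1253 (shRNA linc1253), and 2 ChIP-seq libraries without treatment, 1 with antibody against Pontin and 1 with antibody against GFP.

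Several features limit these groups as models. WT carries the floxed alleles and CreER but had no drug, so drug and deletion cannot be told apart. Tc 2D has no untreated library of its own line in the same table, as WT belongs to another line. The shRNA control libraries were infected, and normalized apart. By the paper, transduced cells were selected with puromycin. It also names another sequencer model for the shRNA libraries than for the WT, OHT and Tc 2D libraries. Line, virus, selection, sequencer and Oct4 loss therefore cannot be told apart. Nothing in the labels says whether replicate libraries came from separate cultures, so p-values measure only the spread between these libraries. ES cells of the study were grown with or without embryonic fibroblast feeders, and which libraries had feeders is not given in the sources used here.

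Reads on genes ranged from 17187595 to 37951742 per library. Levels are given as CPM, counts scaled to the depth of the library, after the authors' TMM scaling, and each value of a member rests on at least 339 reads. Pontin mRNA (Ruvbl1) stood at 198 CPM in WT, 33.3 after 3 days and 50.9 after 4 days of OHT, and at 85.0 at Tc 2D beside 166 and 186 in the shRNA control libraries. Oct4 mRNA (Pou5f1) was 21.1 at Tc 2D against 301 in WT and 642 and 582 in the shRNA control libraries. Markers were called at more than 0.58 from WT on log2 of CPM plus 1. Over all expressed genes 6.01% were higher and 5.88% lower on day 3, and 6.48% and 8.89% on day 4. Of 20 expressed feeder fibroblast markers, 18 were higher than WT on day 3 and 18 on day 4. The summed CPM of that list without Fn1, which ES cells express strongly, was 104 in WT, 577 after 3 days and 720 after 4 days (898, 1218 and 1277 with it), with Lum and Fap at 0 in WT and at OHT 3D. Of 9 expressed trophectoderm markers 5 were higher and 2 lower on day 3, and 6 higher and 1 lower on day 4. The summed CPM of the list was 248 in WT, 247 on day 3 and 430 on day 4. In it Tfap2c fell from 192 CPM in WT to 114 and 127, while Krt8 rose from 19.8 to 65.1 and 155. Of 8 primitive endoderm markers 4 were higher on day 3 and 7 on day 4, and 0 were lower. Of 10 pluripotency markers 0 were called on day 3, and 1 was higher and 0 lower on day 4. Their summed CPM was 3570 in WT, 3533 on day 3 and 3778 on day 4. Fibroblasts also express p53 targets, and the part of all these markers in the results below was not tested. In bulk RNA, fewer cells of a type and less RNA per cell cannot be told apart.

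The DNA around the start sites was searched for the p53 response element, because it is the feature through which p53 acts on these genes. The consensus consists of 2 arms of 10 bases, here with a spacer of 0 to 13 bases, an intact core in each arm and at most 1 mismatch. It was searched within 2.5 kb either side of the annotated start site in NCBIM37, taken as the outermost base of the gene. Starts of other transcripts were not searched, though Cdkn1a has 3 annotated transcripts, Trp53 7 and Mdm2 9. The element reads alike on both strands. Of the 10 members, 5 held a match. The matches are printed 5′ to 3′ on the strand of the gene, with the arms in capitals and the spacer in lower case.
Cdkn1a, chr17:29227873-29227892, plus strand, upstream of the gene: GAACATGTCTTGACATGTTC
Trp53inp1, chr4:11082259-11082279, plus strand, upstream of the gene: AAACATGTCCaGGACTAGCCT
Zmat3, chr3:32263253-32263272, minus strand, intron: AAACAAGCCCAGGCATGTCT
Ccng1, chr11:40568438-40568457, minus strand, intron: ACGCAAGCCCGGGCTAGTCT
Bax, chr7:52720907-52720932, minus strand, intron: AAACATGCTTttgctcAGTCAAGCCC
The Cdkn1a match spanned bases -51 to -32 from that outermost start site and overlapped a longer match with a spacer of 12 bases. That of Trp53inp1 lay between -1319 and -1299, and those of Zmat3, Ccng1 and Bax began 1328, 356 and 1336 bases into the gene. The matches shown for Trp53inp1 and Zmat3 and the longer one of Cdkn1a had no mismatch, the others shown 1. Of 22378 protein-coding start sites, 9.78% had a match in the same window and 1.46% one without a mismatch. For Trp53, Mdm2, Bbc3, Sesn1 and Phlda3 no match lay in this window. A match describes the sequence and is not a measured binding site.

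The members differed widely in level. Per kb of exon, the order in the shRNA control libraries ran from Bax at 102 ± 6.79 CPM per kb (SD, n = 2) through Trp53 at 73.1 ± 0.802 and Ccng1 at 46.8 ± 8.16 down to Sesn1 at 8.81 ± 0.521. The ranges of Trp53inp1 and Mdm2 overlapped, as did those of Mdm2 and Phlda3, of Cdkn1a and Zmat3, and of Bbc3 and Sesn1, so their order is not set by these 2 libraries. Bax and Sesn1 also stood at the ends of the order in WT, at 121 and 6.27 CPM per kb.

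**Figure D1:**
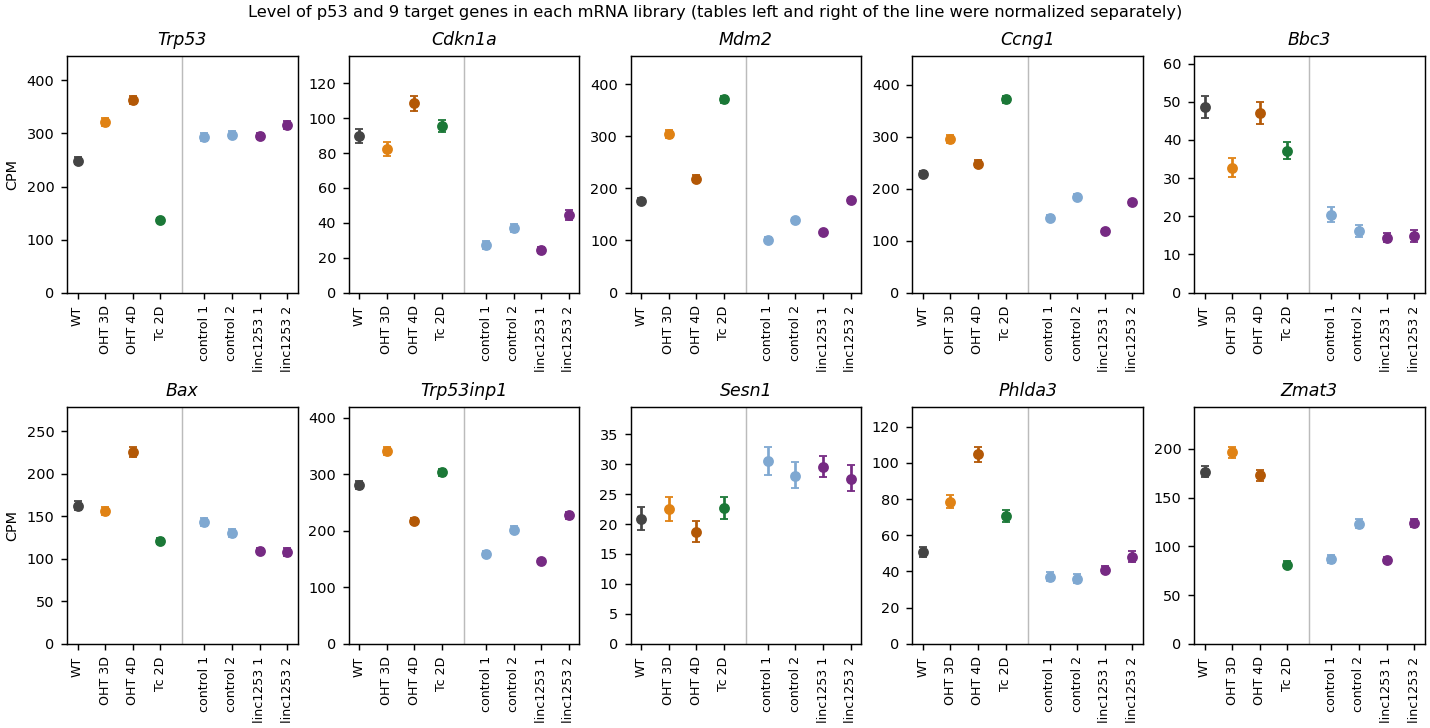
CPM (vertical axes, from 0) of each member in the 8 mRNA libraries, with bars for the 95% counting interval of a single library. The grey line parts the tables that were normalized separately. Trp53 is lowest at Tc 2D (136 CPM) and highest at OHT 4D (364 CPM), while Mdm2 and Ccng1 are highest at Tc 2D (371 and 372 CPM).

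Loss of Pontin was followed at 3 and 4 days, which asks how these genes stood as Pontin mRNA fell. Trp53, Mdm2, Ccng1 and Phlda3 were higher than WT at both times by more than counting error, Bbc3 was lower at 3 days alone by that measure, and Cdkn1a and Trp53inp1 had opposite signs at the 2 times. Calls were made on log2 of CPM plus 1, at a difference from WT of more than 0.58 in either direction. With 1 library a condition there is no replicate check and no p, and all 3 depleted libraries were compared with the same WT library. Intervals are 95% binomial (Clopper-Pearson) and cover the counting of reads alone. At OHT 3D, 2 members were called higher and 0 lower, beside 6.01% and 5.88% of 13449 expressed genes. At OHT 4D the counts were 1 and 0, beside 6.48% and 8.89%. The median log2-fold-change of the members was 0.22 and 0.20 at the 2 times, and that of all expressed genes -0.02 and 0.00.

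Trp53 stood at 249 CPM in WT, 321 on day 3 and 364 on day 4 of OHT. The log2-fold-changes were 0.37 (interval 0.32 to 0.42) and 0.54 (0.50 to 0.59), both off 0 by counting and both under the threshold.

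Mdm2, the ligase that degrades p53, was at 176 CPM in WT, 304 on day 3 and 219 on day 4. It changed by 0.79 (0.73 to 0.85) at 3 days, a call, and 0.32 (0.25 to 0.38) at 4 days, below the threshold. Mdm2 was thus highest at 3 days, with 4 days 0.48 lower on the log2 scale (-0.53 to -0.42 as the counting interval of the difference). Replicates of the shRNA groups differed by 0.45 and 0.61 in Mdm2, and no such spread is known for the OHT libraries. Ccng1 encodes cyclin G1, a feedback gene that recruits a phosphatase to Mdm2. Its course was alike at lower size, with 228, 295 and 248 CPM and log2-fold-changes of 0.37 (0.32 to 0.43) and 0.12 (0.07 to 0.18). In Ccng1 the replicates of the shRNA groups differed by 0.35 and 0.53.

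Phlda3, which encodes a PH-domain inhibitor of Akt, was the member called at both times. Its level was 50.6 CPM in WT, 78.5 on day 3 and 105 on day 4. The log2-fold-changes were 0.62 (0.51 to 0.73), with a lower bound under the threshold, and 1.03 (0.93 to 1.13).

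Cdkn1a encodes p21, the inhibitor of cyclin-dependent kinases through which p53 stops the cell cycle. It was at 89.6 CPM in WT, 82.2 on day 3 and 109 on day 4. These levels gave log2-fold-changes of -0.12 (-0.21 to -0.03) and 0.27 (0.19 to 0.36), neither a call.

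Among the apoptosis genes, Bbc3 (PUMA, a BH3-only activator of apoptosis) was at 48.7 CPM in WT, 32.7 on day 3 and 47.1 on day 4. On day 3 its log2-fold-change of -0.56 (-0.69 to -0.43) fell just short of the threshold, and at 4 days it was -0.05 (-0.17 to 0.07). Bax, the pore-forming effector that PUMA helps to activate, was at 162, 156 and 226 CPM, with -0.05 (-0.12 to 0.01) and 0.48 (0.41 to 0.54). Bbc3 and Bax were both higher at 4 than at 3 days, by 0.51 and 0.53, which came to 0.27 and 0.15 when centred on genes of like transcript length.

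Trp53inp1, a stress-induced gene linked to apoptosis and autophagy, was at 282 CPM in WT, 341 on day 3 and 217 on day 4. It was above WT at 3 days (0.28, 0.23 to 0.32) and below at 4 days (-0.37, -0.43 to -0.32). The change from 3 to 4 days, -0.65 (-0.70 to -0.60), was the 1 call among members between the OHT libraries, where 8.84% of genes were called lower and 5.47% higher. Centred on genes of like transcript length it was -0.39 and no longer a call.

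Zmat3 (Wig1), an RNA-binding zinc-finger gene, and Sesn1, a sestrin that restrains mTORC1, moved little. Zmat3 was at 177, 197 and 173 CPM and Sesn1 at 20.9, 22.5 and 18.7. Their log2-fold-changes ran from -0.15 to 0.15, and the Sesn1 intervals held 0 at both times.

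**Figure D2:**
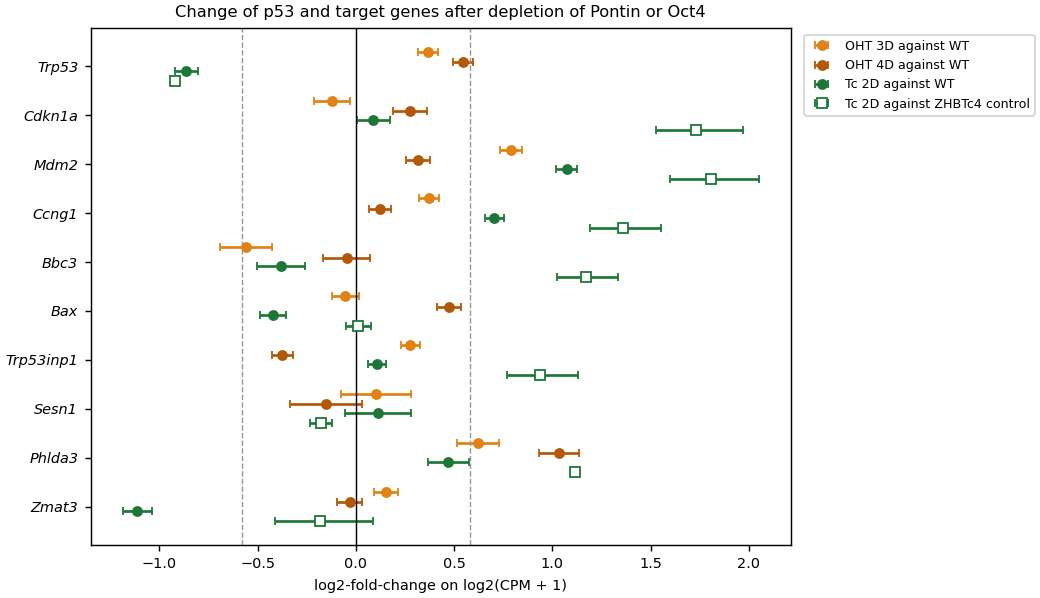
Log2-fold-change on log2(CPM + 1) of each member (horizontal axis) for OHT 3D, OHT 4D and Tc 2D against WT, with 95% counting intervals, and for Tc 2D against the mean of the 2 ZHBTc4 control libraries on a common scale (open squares), with bars from the value against the higher to that against the lower control library. Dashed lines mark 0.58 either side of 0, and Cdkn1a and Bbc3 at Tc 2D sit past the line only against the ZHBTc4 controls (1.73 and 1.17).

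Transcript length moved with the changes in these libraries, as seen in medians over all expressed genes. At OHT 4D the median log2-fold-change fell from 0.26 for genes whose longest transcript is up to 1000 bases to -0.49 above 8000 bases, while at OHT 3D it went from -0.15 to 0.11. Bax, at 1049 bases the shortest member, and Trp53inp1, at 5432 bases, had OHT 4D values on the same sides as the genes of like length. With each change centred on the median of genes of like length (250 on either side in the order of length), Bax at OHT 4D went from 0.48 to 0.26, Trp53inp1 from -0.37 to -0.14 and Zmat3 from -0.03 to 0.36. Centring left Phlda3 at 0.74 at 3 days and 0.88 at 4 days, Mdm2 at 0.80 at 3 days and Trp53 at 0.54 at 4 days, and no call of a member against WT at either time changed. Between the OHT libraries the call of Trp53inp1 was lost. What ties length to change in these libraries was not tested.

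**Figure D3:**
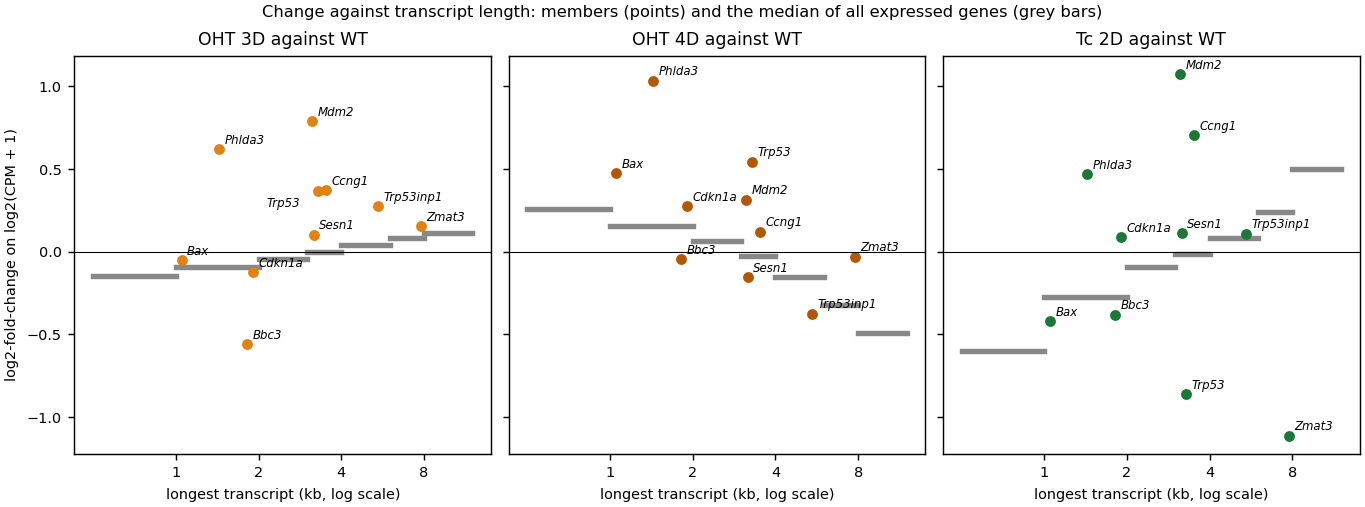
Log2-fold-change of each member (points) against the length of its longest transcript in kb (log scale), with grey bars for the median of all expressed genes in each length class, for OHT 3D, OHT 4D and Tc 2D. The grey bars slope down at OHT 4D, from 0.26 to -0.49, and up at Tc 2D, from -0.60 to 0.50.

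Loss of Oct4 was sampled at Tc 2D. Against WT, Mdm2 and Ccng1 were higher and Trp53 and Zmat3 lower, so p53 mRNA and its feedback genes stood on opposite sides. That made 2 members higher and 2 lower past the threshold, beside 23.9% and 25.8% of all expressed genes.

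Trp53 was at 136 CPM at Tc 2D, the lowest of the 8 libraries, with a log2-fold-change of -0.86 (-0.92 to -0.80). Against the shRNA control libraries on a common median-of-ratios scale it was -0.92, and below both of them. The lower Trp53 level at Tc 2D was therefore seen with either control line.

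Mdm2 was at 371 CPM at Tc 2D, the highest of the 8 libraries, with 1.07 (1.02 to 1.13) against WT and 1.81 against the ZHBTc4 controls. Ccng1 was likewise highest there, at 372 CPM, with 0.70 (0.66 to 0.75) and 1.36. With the control alone changed, on deposited CPM, the values were 1.62 and 1.17, so both genes were higher in each setting.

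For Cdkn1a, Bbc3 and Zmat3 the values differed more between the controls than for Mdm2 and Ccng1. On the common scale Cdkn1a was at 102 CPM at Tc 2D and 95.1 in WT, but at 25.4 and 34.9 in the control libraries, so its log2-fold-change was 0.09 (0.01 to 0.17) on deposited values against WT and 1.73 against the ZHBTc4 controls. Bbc3 changed sides, from -0.38 (-0.50 to -0.26) against WT to 1.17. Zmat3 lost its call, from -1.11 (-1.19 to -1.04) to -0.18, with its level at Tc 2D, 87.1 CPM, between those of the 2 controls, 82.0 and 116. With the control alone changed, on deposited CPM, Cdkn1a was at 1.55, Bbc3 at 0.99 and Zmat3 at -0.37. On that scale Zmat3 at Tc 2D, 81.1 CPM, was below both controls, 87.2 and 123.

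Trp53inp1 went from 0.11 to 0.94 and Phlda3 from 0.47 to 1.12 between the deposited values against WT and the common scale against the ZHBTc4 controls. Bax went from -0.42 to 0.01 and Sesn1 from 0.11 to -0.18. With the control alone changed, on deposited CPM, Bax was at -0.18, Sesn1 at -0.36, Trp53inp1 at 0.75 and Phlda3 at 0.93, so the scale moved these values too. In all, 6 members were higher and 1 lower against the ZHBTc4 controls on the common scale, beside 24.3% and 22.1% of all genes. On deposited CPM the counts were also 6 and 1, beside 18.3% and 28.7%.

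The undepleted libraries of the 2 lines differed in their levels of these genes. WT was above the mean of the ZHBTc4 controls by more than 0.58 on the common scale for 7 members, beside 14.2% of all genes, and below it for 0, beside 12.2%. The gaps were 1.62 for Cdkn1a, 1.53 for Bbc3, 0.91 for Zmat3, 0.81 for Trp53inp1, 0.72 for Mdm2, 0.64 for Ccng1 and 0.63 for Phlda3. Trp53 itself differed by -0.08 between them. Cell state markers differed between these libraries too, in deposited CPM of tables normalized apart. The pluripotency list summed to 3570 CPM in WT and to 6835 and 6081 in the controls. The trophectoderm list summed to 248 against 121 and 116, of which Tfap2c held 192 against 52.7 and 49.7. Its other genes went both ways, such as Krt7 (5.90 against 1.85 and 1.68) and Krt8 (19.8 against 22.2 and 25.2). The feeder list without Fn1 summed to 104 against 356 and 291, of which Vim held 34.1 against 217 and 163. Some of that list were higher in WT, such as Acta2 (5.90 against 0.28 and 3.31) and Tagln (12.4 against 2.77 and 6.67). The part of the markers in the members' gaps was not tested. Line, infection, selection, sequencer and table cannot be told apart in those gaps.

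The state of the cells differed at Tc 2D as well. Of 10 pluripotency markers 8 were lower and 1 higher than in WT, of 9 expressed trophectoderm markers 8 were higher and 1 lower, and of 8 primitive endoderm markers 5 were higher. Of the feeder list, 4 of 20 were higher and 9 lower, beside 23.9% and 25.8% of all genes. Postn, Dcn, Lum, Acta2 and S100a4 were at 0. The part of these markers in the members' values was not tested. Length also moved with the change at Tc 2D, from a median of -0.60 up to 1000 bases to 0.50 above 8000 bases. Centred on genes of like length, Zmat3, whose longest transcript has 7791 bases, fell further to -1.40, Bax went to 0.01 and Phlda3 rose past the threshold to 0.74.

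Other genes of the pathway were read from lists of known p53 targets and regulators. Of 45 further targets, 44 matched an ID and 42 were expressed. At OHT 3D 3 of the 42 were called higher and 2 lower, which is 7.14% and 4.76%, beside 6.01% and 5.88% of all genes. On day 4 the counts were 4 and 2, which is 9.52% and 4.76%, beside 6.48% and 8.89%. At Tc 2D 8 were higher and 17 lower than in WT (19.0% and 40.5%, beside 23.9% and 25.8%), with a median of -0.22. Against the ZHBTc4 controls on the common scale 15 were higher and 10 lower (35.7% and 23.8%, beside 24.3% and 22.1%), with a median of 0.27. Changing the control alone, on deposited CPM, gave 10 higher and 11 lower (23.8% and 26.2%, beside 18.3% and 28.7%) and a median of 0.09, beside -0.14 for all genes. Changing the scale alone, with WT as control, gave 9 and 16, beside 24.5% and 25.4%, and a median of -0.20, beside -0.04.

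Of the cell cycle targets, 2 passed the threshold at OHT 3D. Plk2, a kinase of the polo family, was at 67.2 CPM in WT and 119 at OHT 3D (0.82), and Ccng2, the relative of Ccng1, at 15.2 and 9.50 (-0.63). At OHT 4D Sfn (14-3-3σ, which holds cells in G2) was at 228 CPM against 141 (0.69). Perp, a membrane protein that takes part in p53-dependent death, was higher at both times, at 78.3 and 77.5 CPM against 40.9. Gpx1, a glutathione peroxidase, was likewise higher at both (0.67 and 0.72), and Ddit4, an inhibitor of mTORC1, lower at both (-0.93 and -0.70).

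At Tc 2D the targets parted in both directions, and values against the ZHBTc4 controls are given beside them on the common scale. The polymerase gene Polk was at 77.1 CPM against 28.0 in WT (1.43), and 2.22 above the ZHBTc4 controls. Aen, an apoptosis nuclease, was at 178 CPM against 59.4 in WT (1.57), but at 191 and 142 in the ZHBTc4 controls (0.28 on the common scale).

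Sfn was at 5.96 CPM against 141 in WT (-4.36), and at 11.1 and 42.2 in the ZHBTc4 controls (-1.82). Pmaip1 (NOXA, a BH3-only gene) was at 20.3 CPM against 125 in WT (-2.56), between the ZHBTc4 controls at 17.4 and 41.7 (-0.34). The stress gene Gadd45a was at 12.7 CPM against 78.4 in WT (-2.54), with 21.8 and 30.1 in the controls (-0.80).

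Of 18 expressed p53 regulators, none was called at OHT 3D, and at OHT 4D 1 was higher and 6 lower (5.56% and 33.3%, beside 6.48% and 8.89% of all genes). The gene higher was Cdkn2a, whose ARF product inhibits Mdm2, at 14.02 CPM against 7.33 (0.85). Mdm4, the partner of Mdm2 that masks the p53 activation domain, was at 31.9 CPM against 92.5 (-1.51), and Atm, a kinase that signals DNA breaks to p53, at 26.98 against 59.5 (-1.11). Ep300, which acetylates p53, was at 86.3 against 158 (-0.87). Of the 6, 5 have a longest transcript of 7684 bases or more, a length at which the median of all genes was also below 0. Mdm4 has 3490 bases, in a length class whose median was -0.03.

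At Tc 2D 4 regulators were higher and 7 lower than in WT (22.2% and 38.9%, beside 23.9% and 25.8%). Against the ZHBTc4 controls the counts were 4 and 7 on the common scale, beside 24.3% and 22.1%. On deposited CPM they were 3 and 9, beside 18.3% and 28.7%. The genes called were not all the same with WT and with the ZHBTc4 controls on the common scale. Trp53bp1 (0.64 to 0.35), Chek2 and Hipk2 (-0.62 to -0.41) lost their calls. Ppm1d (0.42 to 0.94), Cdkn2a (-0.23 to -0.95) and Wrap53 (-0.48 to -0.89) gained one. Mdm4 was at 162 CPM (0.80) and Crebbp, another acetyltransferase of p53, at 74.6 against 24.4 (1.58, and 0.91 against the ZHBTc4 controls). The deacetylase gene Sirt1 was at 43.1 against 102 (-1.23), and Chek2, a checkpoint kinase, at 37.7 against 82.5 (-1.11, and -0.45 against the ZHBTc4 controls). Rpl11, a ribosomal protein that binds Mdm2, was at 164 against 349 (-1.08, and -1.82 against the ZHBTc4 controls). Of the 4 higher than WT, Crebbp, Ep300 and Trp53bp1 have longest transcripts of 7507, 8749 and 9621 bases. At Tc 2D the median of all genes was 0.24 from 6000 to 8000 bases and 0.50 above. Rpl11 has 917 bases, in a length class with a median of -0.60. Hipk2, lower, has 7684 bases, and Mdm4, higher, 3490, where the median was -0.01. The regulators' values given here were not centred on length.

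Genes of mitosis and replication that fall when p53 and p21 are active formed a list of 12. None was called at OHT 3D, Bub1 alone at OHT 4D (-0.60), and 9 were lower than in WT at Tc 2D (75.0%, beside 25.8% of all genes) with a median of -0.95 beside -0.06 for all genes. At OHT 4D 8.89% of all genes were lower. The median of the list was -0.26 at OHT 3D and -0.06 at OHT 4D, beside -0.02 and -0.003 for all genes. Of the 12, 1 was above 0 at OHT 3D and 5 at OHT 4D. Against the ZHBTc4 controls 9 were lower on the common scale, with a median of -0.86, and 10 on deposited CPM, beside 22.1% and 28.7% of all genes. Plk1, a mitotic kinase, was at 48.8 CPM at Tc 2D against 195 in WT (-1.98, and -1.12 against the ZHBTc4 controls), and Cdc20, an activator of the anaphase complex, at 102 against 267 (-1.37, and -0.80).

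Knockdown of linc1253 asked whether these genes respond to that RNA, and here 2 libraries a group gave a spread. The level of linc1253 itself was not looked up in these libraries. None of the 10 members passed the test, limma with trend and Benjamini-Hochberg adjustment over 13407 genes. It called 0 genes in all, higher or lower (0% and 0%), with 496 and 503 at an unadjusted p under 0.05 (3.70% and 3.75%). The edgeR quasi-likelihood test called 0 members and 0 genes. The edgeR exact test called 38 genes higher and 42 lower and DESeq2 22 and 28, with 0 members among them. None of these fits used the replicate number, which the labels do not explain. With that number as a block limma called 5 members, as given with the processing below.

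Bax had the lowest p of the members. Its level was 143 and 130 CPM in the control libraries and 110 and 108 in the linc1253 libraries, so the groups did not overlap. The log2-fold-change was -0.33 (SE 0.091, unadjusted p = 0.011, adjusted p = 0.573 in limma).

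Bbc3 and Phlda3 also did not overlap between groups. Bbc3 was at 20.4 and 16.1 CPM in the controls and 14.4 and 14.9 after knockdown (-0.29, SE 0.144, limma adjusted p = 0.707). Phlda3 was at 37.0 and 36.0 against 40.9 and 48.1 (0.27, SE 0.114, limma adjusted p = 0.669). Over all genes tested, both linc1253 libraries lay above both controls for 18.8% and below for 19.2%, and the members gave 1 and 2 of 10.

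For the cell cycle and feedback members the spread within a group was larger than the change between groups. Cdkn1a was at 27.0 and 37.0 CPM in the controls and at 24.5 and 44.3 after knockdown, a difference between groups of 0.06 (SE 0.282, limma adjusted p = 0.971). Mdm2 was at 101 and 138 against 115 and 177 (0.27, SE 0.229) and Ccng1 at 144 and 185 against 119 and 173 (-0.18, SE 0.199). In each of these genes the 4 libraries overlapped across groups.

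Trp53inp1 and Zmat3 showed the same spread. Trp53inp1 was at 158 and 202 CPM against 146 and 228 (0.03, SE 0.222), and Zmat3 at 87.2 and 123 against 85.8 and 124 (-0.01, SE 0.220). Trp53 was steady by comparison, at 293 and 298 against 296 and 316 (0.05, SE 0.086), and Sesn1 at 30.5 and 28.1 against 29.6 and 27.6 (-0.03, SE 0.109). Both libraries numbered 2 were above both numbered 1 for 6 members, beside 24.9% of all genes, and below for 1, beside 26%, a split looked at after the values were seen.

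**Figure D4:**
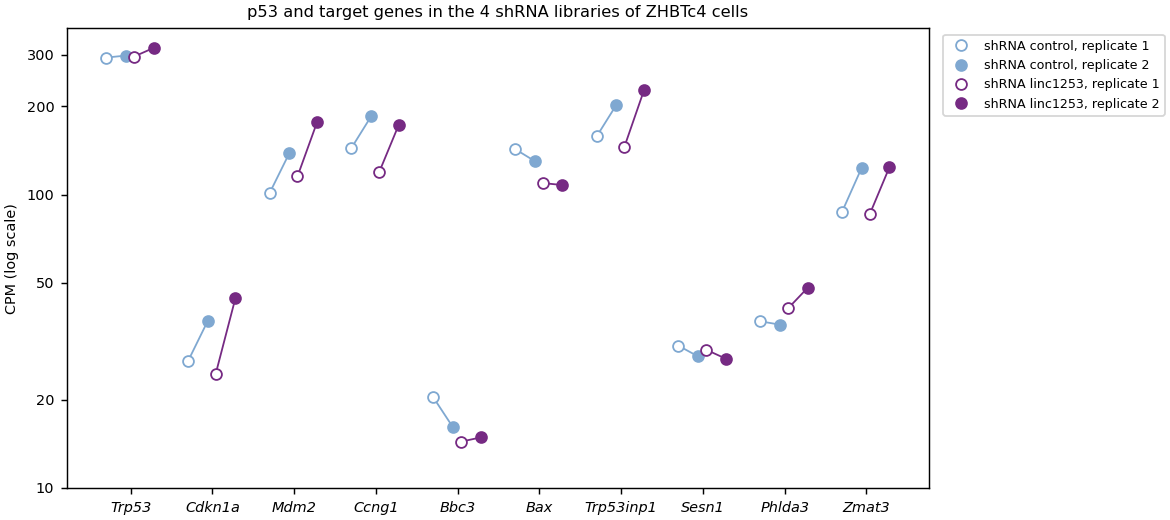
CPM on a log scale of each member in the 4 ZHBTc4 shRNA libraries, with open circles for replicate 1, filled circles for replicate 2 and lines joining the libraries of a group. The lines of Cdkn1a, Mdm2, Ccng1, Trp53inp1 and Zmat3 span log2 differences of 0.35 to 0.83 within a group, more than the difference between groups.

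Of the further targets, regulators and repressed genes, none was called by limma after knockdown. The medians were 0.00 for the 42 targets, 0.01 for the regulators and -0.11 for the 12 repressed genes, beside 0.00 for all genes.

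Genes whose pattern lay nearest to a member were sought over the 8 libraries, with log2 of CPM plus 1 centred within each table, as the root mean square (RMS) difference among 10428 genes above a mean of 5 CPM. Nearest to Trp53 were Tyms (thymidylate synthase, RMS 0.051), Dtymk (thymidylate kinase, 0.070), Lmna (0.070), Ddx56 (0.072) and Pole4 (0.074), where the median gene was at 0.412. For Cdkn1a they were Slc22a17 (0.102) and the mitochondrially encoded mt-Nd2, mt-Nd6, mt-Atp8 and mt-Nd5 (0.120 to 0.142). For Mdm2 they were Pfkfb4 (0.092), Steap2 (0.111), Abhd5 (0.120), Bmp2k (0.123) and Mbnl1 (0.130). Among the members themselves the nearest pairs were Ccng1 with Trp53inp1, Bbc3 with Bax and Mdm2 with Ccng1 (0.196, 0.196 and 0.199), and the farthest was Trp53 with Mdm2 (0.624). The 8 libraries are few and differ in line, treatment and depth, so these are descriptions.

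Pontin binding at the members' promoters was read from the ChIP-seq of untreated ZHBTc4 cells, with 40729076 Pontin and 17185883 GFP reads and 1 library each, so no test. Reads were counted from 2.5 kb upstream to 500 bases downstream of the start site and scaled by library size. The start site was again the outermost annotated base, so other promoters of a gene can lie outside this window. The Trp53 promoter had 102 Pontin and 19 GFP reads, a log2 ratio of 1.18 (0.46 to 1.97), and was the 1 member above 1, beside 14.5% of all promoters. Its GFP reads were the fewest of the members, while Bax, Cdkn1a and Trp53inp1 had more Pontin reads (112, 108 and 107). With scaling by the median ratio over promoters 0 members were above 1, beside 6.17%.

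The 9 targets had a median of 0.27 and all 10 members one of 0.30. The median was 0.34 over 21198 promoters and 0.45 over those of 12786 genes expressed in the ZHBTc4 controls, of which 16.9% were above 1. Bax had 112 Pontin and 29 GFP reads (0.70, 0.10 to 1.35) and Sesn1 99 and 26 (0.68, 0.05 to 1.37), both off 0 by counting. Both intervals held the promoter medians of 0.34 and 0.45, and the 2 ratios stood at percentiles 72.6 and 71.4 of promoters. Cdkn1a had 108 and 31 (0.56, -0.03 to 1.18). Mdm2 was lowest with 87 and 44 reads (-0.26, -0.80 to 0.30). With 19 to 44 GFP reads a member, the intervals of the 9 targets all overlapped. Within 1 kb either side of the start site Trp53, Bbc3 and Sesn1 were above 1, at 1.71, 1.10 and 2.08, beside 26.4% of all promoters.

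**Figure D5:**
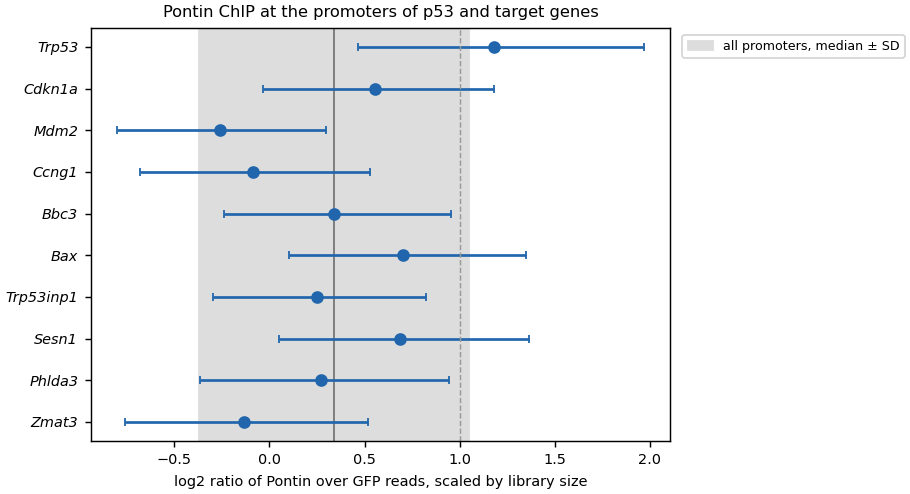
Log2 ratio of Pontin over GFP reads at each member's promoter (horizontal axis) with 95% counting intervals, and in grey the median ± SD over 21198 promoters (0.34 ± 0.71). Trp53 (1.18) lies past the dashed line at 1 on this scale, where 0 members did after scaling by the median ratio, and the intervals of 7 of the 9 targets include 0.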

How the data were processed

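Poly(A) mRNA and ChIP DNA were sequenced by the study. According to the methods and the submitters' processing notes, the authors aligned mRNA reads to NCBIM37 with TopHat, counted them with HTSeq and deposited CPM after TMM in edgeR, in 2 tables normalized separately. Versions are not given in the sources used here. Reads were recovered from the CPM, as 100% of values were whole multiples of 1 read within 0.01. The deposited ChIP-seq reads carry a mapping score from Bowtie2, of which only the lowest was looked up, 5 for GFP and 6 for Pontin, and duplicates were kept.

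Symbols were matched for 22337 of 22713 IDs. Genes above 1 CPM in at least 1 library of a table were kept (13449 and 13407), and 1 was added before log2. The shRNA groups were compared with limma 3.58.1 with trend in R 4.3.3, and on recovered reads with DESeq2 1.42.0 and edgeR 4.0.16. Python 3.11.15 (pysam 0.24.0, scipy 1.17.1, pandas 2.3.3, numpy 2.4.6) did the rest. On simulated data, 2-fold changes of 200 among 13407 genes were called in 99.0% by limma in the linc1253 design. Among 13449 genes, 95.0% of 2-fold changes passed 0.58 between 1 library a group, and 0.664% of unchanged genes did. The simulated libraries were independent and had a small, fixed spread. Real libraries of the same shRNA group differed by 0.44 and 0.83 on the log2 scale for Cdkn1a. The simulated shares therefore check the code and do not give the power or error rate for the members.

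Alternatives were pseudocounts of 0.5 and 3, no filter or 5 CPM, median-of-ratios scaling, a threshold of 1, ZHBTc4 controls, other tests, a replicate block, leaving out libraries and, chosen after seeing the data, length centring and the ZHBTc4 controls on either scale for the pathway lists. The members and lists were chosen with earlier results of these data known. All members are named, with up to 3 rises and 3 falls per pathway list and comparison among genes with a mean of at least 5 CPM, of which some are not reported. Intervals measure counting error alone: the libraries had no molecular identifiers, so reads can be copies of a molecule.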

Additional observations from a re-analysis of the deposited data

Results flagged for a closer look

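Cdkn1a and Trp53inp1 were on opposite sides of WT at 3 and 4 days after OHT, each by more than counting error. From OHT 3D to OHT 4D the log2 value of Cdkn1a rose by 0.40 and that of Trp53inp1 fell by 0.65. Centred on genes of like transcript length these differences were 0.17 and -0.39. The changes against WT, centred in the same way, were -0.06 at 3 days and 0.14 at 4 days for Cdkn1a. For Trp53inp1 they were 0.18 and -0.14. Replicates of the shRNA control and linc1253 groups differed by 0.44 and 0.83 for Cdkn1a and by 0.35 and 0.64 for Trp53inp1. The change from 3 to 4 days was not tested, as each time has 1 library.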

How the results depend on the processing

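With a threshold of 1, 0 members were higher at OHT 3D, beside 1.90% of all genes, and 1 was higher and 1 lower at Tc 2D, beside 12.8% and 12.6%. With ZHBTc4 controls at Tc 2D, 6 were higher and 1 lower, on deposited values (beside 18.3% and 28.7%) and on a common scale (beside 24.3% and 22.1%). For linc1253, the libraries shared only a replicate number. With that number as a block in limma, 2 members were higher (Mdm2, adjusted p = 0.00376, and Phlda3, 0.0137). Another 3 were lower (Bax, 5.74e-04, Ccng1, 0.0384, and Bbc3, 0.0439). Of all 13407 genes, 933 were higher and 1027 lower. Deviations of libraries with the same number correlated at 0.673, as a hint from the data and not the design. ChIP ratios above 1 numbered 0 after scaling by the median ratio and 3 within 1 kb of the start site. No member had 50 GFP reads, so that alternative gave no value. Leaving out 1 shRNA library called 0 members. It gave log2-fold-changes of -0.36 to 0.47 for Cdkn1a, -0.038 to 0.57 for Mdm2, -0.45 to 0.086 for Ccng1, -0.29 to 0.35 for Trp53inp1, -0.27 to 0.25 for Zmat3, -0.093 to 0.024 for Sesn1 and -0.00021 to 0.10 for Trp53, so their signs depend on which library is left out. Bax kept its sign (-0.39 to -0.26), as did Bbc3 (-0.45 to -0.13) and Phlda3 (0.16 to 0.39). The cause of these changes was not tested. Other pseudocounts, filters and scalings left the counts of members called against WT and after linc1253 knockdown as they were. The comparison between the OHT libraries was not rerun under these settings.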

Other observations

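A pattern across the shRNA libraries was chosen after its values were seen. Both libraries numbered 2 were above both numbered 1 for 6 of the 10 members, namely Trp53, Cdkn1a, Mdm2, Ccng1, Trp53inp1 and Zmat3, beside 24.9% of all genes, and below for Sesn1, beside 26%. The log2 differences of replicate 2 over replicate 1 were 0.44 and 0.83 for Cdkn1a in the control and linc1253 groups, 0.45 and 0.61 for Mdm2, 0.35 and 0.53 for Ccng1, 0.35 and 0.64 for Trp53inp1 and 0.49 and 0.53 for Zmat3. Of the 42 further p53 targets 22 were above and 5 below (52.4% and 11.9%). Markers of other cells differed with the number too: of 18 feeder fibroblast markers 11 were above and 4 below (median 0.57), with Acta2 at 0.28 and 0.18 CPM in the libraries numbered 1 and 3.31 and 17.7 in those numbered 2, and of 7 primitive endoderm markers 4 were above and 0 below (median 0.42). Of 10 pluripotency markers 2 were above and 6 below, and of 8 trophectoderm markers 0 above and 3 below. Their part in the members' values was not tested. What the replicate number stands for is not given in the sources used here.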
